A study of Mus musculus with 6 samples.

Results

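Cytosolic ribosomal protein genes were examined in sorted Pitx3-GFP neurons of mouse embryos at stage E14.5. The members were the non-control probes whose platform gene symbol is Rpl or Rps followed by a number, or Rplp0, Rplp1, Rplp2 or Rpsa, without S6 kinases, Rps19bp1, Rpl7l1 and names of pseudogenes. This gave 100 of 41174 probes and 57 of 18295 genes, of which 21 encode proteins of the small subunit (37 probes) and 36 proteins of the large subunit (63 probes). A reference gene table listed 84 protein-coding genes that fit the symbol rule, and 56 of them had a probe here. The other member, Rps4l, carried the older name Rps4y2 on the platform. Rplp1 was not analysed here.

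All RNA came from cells sorted by flow cytometry for GFP expressed from a Pitx3 allele, so the marker allele was present in both genotypes. The heterozygous group, labelled Pitx3(gfp/+), was 3 pools of 69000 to 83000 sorted cells, each from several embryos. The null RNA, labelled Pitx3(gfp/-) and Pitx3-GFP/AK, was 1 pool, hybridised on all 6 two-colour arrays. Each heterozygous pool met it on 2 arrays with the dyes swapped, after 2 rounds of T7 amplification. Every ratio below is null over heterozygous on the log2 scale, where 1 is a 2-fold higher level in the null pool, and is given as the mean ± SD of the 3 heterozygous pools after averaging the swapped arrays. The spread of null pools could not be measured. In sorted pools, a change in the share of cells of a type and a change in RNA per cell cannot be told apart.

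The cytosolic ribosome translates messenger RNA into protein. Its small subunit binds the message and reads the codons, and its large subunit joins the amino acids and passes the new chain through an exit tunnel. Almost every ribosomal protein is present in a single copy per ribosome, and cells make them in matched amounts. Their messages are short and abundant, and in mammals most begin with a run of pyrimidines, through which the mTOR pathway and the RNA-binding protein Larp1 regulate their translation together. In developing neurons, ribosomes are needed for growth of the cell body and for local protein synthesis in axons.

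On single arrays, 47.6% to 71.4% of genes were clearly brighter than background in one RNA. A gene is called above background here if, in either RNA, at least 3 of 6 arrays gave a signal over the median of the local background plus 2 of its SDs. Of the markers of dopaminergic neurons, 9 of 12 were above background, but the probes of Th, which encodes tyrosine hydroxylase, and of En1 were well above background on 0 arrays in either RNA. Pitx3 read -0.08 ± 0.32 (n = 3 pools, limma adjusted p = 0.811), with mean signals of 448 in the null and 451 in the heterozygous RNA. Both genotypes carry the GFP allele, and by the labels they differ in the other allele. It is not known here which stretch of the message the probe reads, nor from which allele, so this value does not check the genotypes.

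Ribosomal protein genes have compact promoters close to the start of the gene, where factors of the ETS family such as Gabpa and the zinc finger factor Yy1 are known to bind. The stretches below show the promoters of some members with high ratios beside those of the lowest members above background. They are from RefSeq on build GRCm38.p6, from 130 bases before the annotated start to 30 bases into the gene, printed 5′ to 3′ on the strand of the gene. Shown for each subunit are 3 members with high ratios and a core ETS motif in this stretch, and the member above background with the lowest ratio. They were chosen after the values were seen. An ETS core was required of the high members and not of the lowest, so these stretches cannot compare the motif between them. The choice did not take in every member, so the high members shown are not a full ranking. Rps14, Rps20, Rpl37a and Rpl35a also had high ratios and are not shown. Capitals mark the motifs searched: CCGGAA or its reverse complement (ETS), and AAGATGG or its reverse complement within 50 bases of the start (Yy1). Capitals also mark CTTTCC, a form of pyrimidine run, on the strand of the gene from 10 bases before to 30 bases after the start. Other runs of pyrimidines were not searched and are not marked.
Rplp2: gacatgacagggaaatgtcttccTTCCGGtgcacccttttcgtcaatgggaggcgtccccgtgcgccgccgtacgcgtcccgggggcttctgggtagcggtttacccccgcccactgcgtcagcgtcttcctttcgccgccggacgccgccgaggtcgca
Rpl39: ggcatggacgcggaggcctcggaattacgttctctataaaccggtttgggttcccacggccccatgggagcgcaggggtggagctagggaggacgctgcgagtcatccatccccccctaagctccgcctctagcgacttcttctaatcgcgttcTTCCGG
Rpl11: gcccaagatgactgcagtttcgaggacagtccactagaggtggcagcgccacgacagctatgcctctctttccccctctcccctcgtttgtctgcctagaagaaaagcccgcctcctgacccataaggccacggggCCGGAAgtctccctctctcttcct
Rpl13a: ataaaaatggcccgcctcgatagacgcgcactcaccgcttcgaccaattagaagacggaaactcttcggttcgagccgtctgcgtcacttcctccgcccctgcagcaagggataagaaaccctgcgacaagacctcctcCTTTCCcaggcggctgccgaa
Rps21: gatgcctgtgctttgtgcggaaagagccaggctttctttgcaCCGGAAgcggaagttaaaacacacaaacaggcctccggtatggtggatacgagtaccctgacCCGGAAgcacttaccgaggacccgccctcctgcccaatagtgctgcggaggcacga
Rps18: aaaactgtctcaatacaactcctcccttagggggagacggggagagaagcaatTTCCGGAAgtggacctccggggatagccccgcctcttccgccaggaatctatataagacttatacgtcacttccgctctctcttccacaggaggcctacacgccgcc
Rps25: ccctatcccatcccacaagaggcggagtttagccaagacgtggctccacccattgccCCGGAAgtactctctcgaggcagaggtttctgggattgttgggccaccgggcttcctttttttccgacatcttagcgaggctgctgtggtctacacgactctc
Rps28: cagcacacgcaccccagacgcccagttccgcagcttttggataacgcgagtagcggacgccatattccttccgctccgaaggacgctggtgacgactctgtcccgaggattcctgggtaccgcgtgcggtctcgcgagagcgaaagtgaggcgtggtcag

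These stretches lie at chr7:141447521-141447680 (+ strand), chrX:37085193-37085352 (- strand), chr4:136053364-136053523 (- strand) and chr7:45128716-45128875 (- strand) for the large subunit. Those of the small subunit lie at chr2:180257249-180257408 (+ strand), chr17:33955636-33955795 (- strand), chr9:44407584-44407743 (+ strand) and chr17:33824533-33824692 (- strand). The capitals show 2 separate ETS cores in Rps21, and in Rps18 2 overlapping matches on opposite strands. The stretch of Rpl13a holds CTTTCC and no ETS core, and that of Rps28 holds none of the searched motifs. Promoters were found for 47 member genes, with 57 windows of 300 bases from 250 bases before to 50 after an annotated start. The ETS core occurred in 42.1% of these windows, against 14.9% of all 32851 windows in the table. The 23 member genes with an ETS core had a median log2 ratio of 0.63, and the 24 without had 0.21. Of these, 19 and 18 were above background, and their median log2 intensities were 8.62 in both sets. The letters CTTTCC were in 8.77% of member windows against 1.74% of all windows, and the Yy1 core in 12.3% against 2.64%. The search for CTTTCC misses other runs of pyrimidines, so it does not give the share of members that begin with such a run. The median log2 ratio was 0.50 in the 5 genes with CTTTCC and 0.14 in the 5 with the Yy1 core, against 0.38 and 0.44 in the 42 genes without each. A match is a run of letters and not a shown binding site.

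Ribosomal protein messages were higher in the null pool as a group. Of 57 genes, 23 rose and 0 fell at an adjusted p under 0.05 over all genes, which is 40.4% of the members, while 3.09% of all genes tested rose and 1.87% fell (4.96% in either direction). The remaining 34 did not pass. All 23 calls depended on having 3 pools: with pool 1, pool 2 or pool 3 left out, 0 members and 0 genes in all passed, although 40, 39 and 40 members were still higher at an unadjusted p under 0.05. Median centring in place of loess and plain background subtraction also gave 0 calls. The mean of the pool medians over the members was 0.41 ± 0.11 (n = 3 pools), against 0.00074 over all genes. Log2 ratios were above 0 for 52 of the 57 members and for 47.8% of all genes. Among genes above background they were above 0 for 45 of 47 members (46.3% of all such genes), and all 23 calls fell among these 47 (4.6% of all such genes rose). All 6 arrays read above 0 for 37 members, a pattern that 10.9% of all genes had. Ribosomal protein genes made up 18 of the 100 genes with the highest log2 ratios. The members were chosen with these results known, so the counts describe the group and are not independent evidence.

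**Figure D1:**
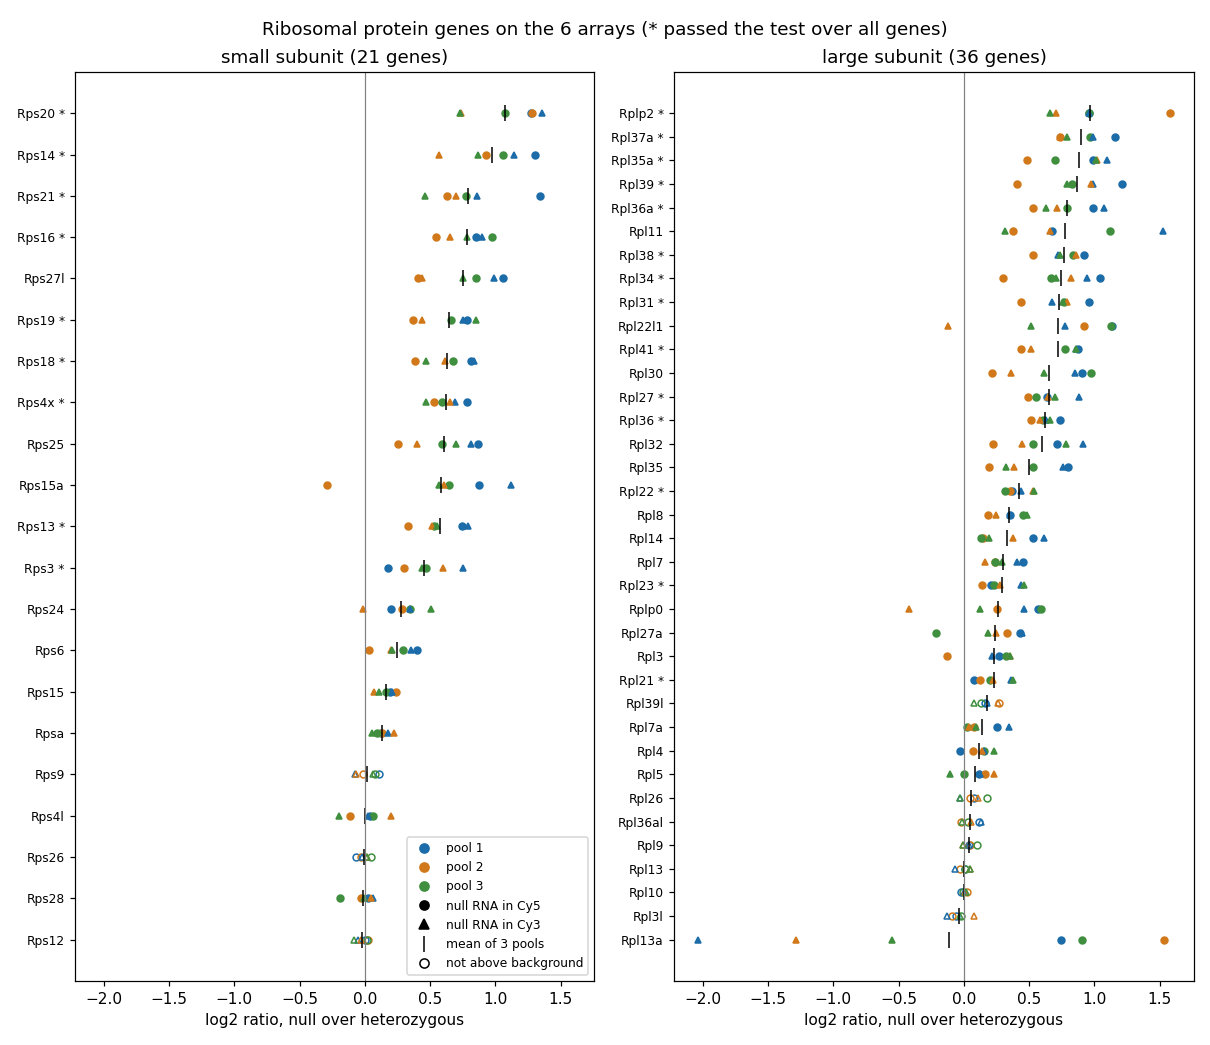
Log2 ratio (null over heterozygous) of each of the 57 ribosomal protein genes on the 6 arrays, for the small subunit (left) and the large subunit (right). Colours are the heterozygous pools, circles and triangles the dye orientations, bars the mean of 3 pools, open symbols genes not above background, and asterisks the 23 genes that passed the test; Rpl13a has 3 arrays above and 3 below 0, split by dye.

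In the small subunit, 9 of 21 genes rose and 12 did not pass. Rps20, a protein of the head of the subunit, was the member with the highest ratio and the 1 member past 2-fold. Its 2 arrays read 1.27 and 1.36 for pool 1, 1.28 and 0.74 for pool 2, and 1.07 and 0.73 for pool 3, with the null RNA first in Cy5 and then in Cy3. All 6 lay above 0, and the mean was 1.08 ± 0.21 (adjusted p = 0.0274). Rps14, which sits on the platform near the path of the message, read 1.30 and 1.14, 0.93 and 0.57, and 1.06 and 0.86 in the same order. It too was above 0 on every array, at 0.98 ± 0.24 (adjusted p = 0.0322), highest in pool 1 and lowest in pool 2.

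Rps21, another small subunit protein, read 1.34 and 0.86 for pool 1, 0.63 and 0.70 for pool 2, and 0.77 and 0.46 for pool 3. Its mean of 0.79 ± 0.27 passed (adjusted p = 0.0467), and the highest value came from pool 1, null in Cy5. Rps16, a head protein that reaches toward the transfer RNA, was at 0.78 ± 0.16 (adjusted p = 0.0289), with arrays from 0.54 to 0.98. Rps19, which is needed to process the ribosomal RNA of the small subunit and is mutated in human Diamond-Blackfan anaemia, was at 0.64 ± 0.21 (adjusted p = 0.0453), with arrays from 0.37 to 0.85. Rps4x, the X-linked copy of an essential small subunit protein, was at 0.62 ± 0.11 (adjusted p = 0.0268), with arrays from 0.47 to 0.78. None of these 3 genes had an array at or below 0.

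The other small subunit genes that rose were Rps18, Rps13 and Rps3, at 0.63, 0.58 and 0.46. Rps3, which helps to open the message as it enters the ribosome, had pool means of 0.46, 0.45 and 0.45. Its SD of 0.0076 was the smallest among the 23 called genes, although its single arrays ran from 0.18 to 0.75. Averaging opposite dyes thus gave nearly equal pool means from unequal arrays. Rps25 and Rps15a, at 0.60 ± 0.26 and 0.59 ± 0.42, did not pass (adjusted p = 0.0694 and 0.178).

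Rps6, the small subunit protein that S6 kinases phosphorylate, read 0.40 and 0.35 for pool 1, 0.032 and 0.20 for pool 2, and 0.29 and 0.21 for pool 3. All were above 0, but the mean of 0.25 ± 0.13 did not pass (adjusted p = 0.112). Rpsa, which is also known as a laminin receptor, read 0.13 ± 0.053 and did not pass (adjusted p = 0.110). Its mean signal of 66.1 in the null RNA stood over a background of 44.3, so its ratio is shrunk toward 0 by the offset of 50 added to every signal. The lowest small subunit gene above background was Rps28, at -0.02 ± 0.074 (adjusted p = 0.874), with a null signal of 57.7 over a background of 42.5. Rps12, Rps26 and Rps9 were not above background, and no change is read from them.

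In the large subunit, 14 of 36 genes rose and 22 did not pass. Rplp2, an acidic protein of the stalk that recruits elongation factors, had the highest ratio. Its arrays read 0.95 and 0.96 for pool 1, 1.58 and 0.71 for pool 2, and 0.96 and 0.66 for pool 3. All 6 were above 0, at 0.97 ± 0.17 (adjusted p = 0.0261), and 1 array of pool 2 (null in Cy5) lay far above the rest. Rplp0, the base of the same stalk, read 0.57 and 0.46, 0.25 and -0.42, and 0.59 and 0.13 in that order. One array of pool 2 was below 0, and the mean of 0.26 ± 0.31 did not pass (adjusted p = 0.378).

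Rpl37a, a small zinc finger protein of the subunit, read 1.16 and 0.99 for pool 1, 0.74 and 0.73 for pool 2, and 0.97 and 0.79 for pool 3. The 2 dyes gave near values within each pool, and the mean was 0.89 ± 0.17 (adjusted p = 0.0268). Rpl35a, another human Diamond-Blackfan anaemia gene, was at 0.88 ± 0.15 (adjusted p = 0.0261), with arrays from 0.49 to 1.10. Rpl39, a very short protein that lines the exit tunnel, was at 0.87 ± 0.21 (adjusted p = 0.0328), with arrays from 0.41 to 1.21. Rpl36a, which lies near the exit site of transfer RNA, was at 0.79 ± 0.21 (adjusted p = 0.0370), with arrays from 0.53 to 1.07. In each of these genes pool 1 gave the highest mean and pool 2 the lowest.

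The other large subunit genes that rose were Rpl38, Rpl34, Rpl31, Rpl41, Rpl27, Rpl36, Rpl22, Rpl23 and Rpl21, from 0.77 down to 0.23. Rpl38, which in mice is needed for the translation of Hox messages during patterning of the axial skeleton, was at 0.77 ± 0.064. Rpl22, an RNA-binding protein at the surface of the subunit, was at 0.42 ± 0.020. Of the 5S particle, whose proteins Rpl5 and Rpl11 bind the p53 regulator Mdm2 when they are free, 0 of 2 passed. Rpl11 read 0.67 and 1.52 for pool 1, 0.38 and 0.66 for pool 2, and 1.12 and 0.31 for pool 3. Every array was above 0, but the spread of 0.78 ± 0.30 kept it from passing (adjusted p = 0.0563). Rpl5 read 0.09 ± 0.13 (adjusted p = 0.508), with arrays from -0.11 to 0.23, on a bright probe whose mean null signal was 1129. The lowest ratios of large subunit genes above background were those of Rpl13a, Rpl5 and Rpl4, the last at 0.12 ± 0.066 (adjusted p = 0.171).

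Rpl13a, a protein also known for silencing messages in interferon-treated human monocytes, changed sign with the dye. With the null RNA in Cy5 its arrays read 0.74, 1.53 and 0.90 for pools 1 to 3, and with the null RNA in Cy3 they read -2.04, -1.29 and -0.55. The orientations did not overlap, their means were 1.06 and -1.29, and the average of -0.12 ± 0.46 did not pass (adjusted p = 0.824). The probe was bright, with mean signals of 7978 in the null RNA and 7150 in the heterozygous RNA. The sign of Rpl13a went with the dye on all 6 arrays, and no genotype difference is read from it. The orientations differed by more than 0.5 in 2 members above background, the other being Rpl22l1, and in 0.757% of all genes above background. Orientations were also separate, by smaller gaps, in Rpl22l1, Rpl21, Rpl22, Rpl23, Rpl27 and Rpl35a. The last 5 of these passed the test and read higher with the null RNA in Cy3.

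Some ribosomal proteins have a paralogue, in some cases with a more restricted expression, and the members held 6 paralogues. Rpl22l1, the paralogue of Rpl22, read 1.13 and 0.78 for pool 1, 0.92 and -0.12 for pool 2, and 1.13 and 0.51 for pool 3. Its mean of 0.72 ± 0.29 did not pass (adjusted p = 0.0620), and each pool read higher with the null RNA in Cy5. Rps27l, a paralogue of Rps27 that p53 induces, was at 0.75 ± 0.30 with all 6 arrays above 0 and did not pass (adjusted p = 0.0623). Rps4l, related to Rps4x, was above background on 6 arrays in both RNAs and read 0.0014 ± 0.063 (adjusted p = 0.990), with arrays from -0.20 to 0.20. Rps4x, its parent gene, rose. Rpl36al, Rpl39l and the muscle paralogue Rpl3l were not above background, while their parents Rpl36a and Rpl39 rose and Rpl3 read 0.23 ± 0.11 (adjusted p = 0.101). Rpl10 was not above background. Fau, whose product is cleaved to give a ribosomal protein of the small subunit but whose symbol lies outside the rule, read 0.70 ± 0.25 with 6 arrays above 0 and did not pass (adjusted p = 0.0517).

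The uncalled genes above background included several with large ratios. Of these 24 genes, 7 had a log2 ratio of at least 0.5, and 5 of the 7 were above 0 on all 6 arrays. Their SDs ran from 0.25 to 0.42 and their adjusted p-values from 0.0563 to 0.178. The 23 called genes had SDs from 0.0076 to 0.27. The adjusted p-values of the called genes lay between 0.0260 and 0.0467, all close to the threshold. At an unadjusted p under 0.05, 41 members were higher and 0 lower.

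The heterozygous pools differed among themselves. Because the null RNA was the same on every array, the order of the ratios is the reverse order of the heterozygous levels. The ratio was highest in pool 1 for 35 of 57 members and lowest in pool 2 for 34, and among the 23 called genes these counts were 18 and 18. The median over the members was 0.51 in pool 1, 0.29 in pool 2 and 0.43 in pool 3. Heterozygous pool 2 thus lay nearest to the null pool, and pool 1 farthest from it. The null level exceeded that of every heterozygous pool for 45 members, against 22.1% of all genes. The gap from the null level to the nearest heterozygous pool was larger than the range of the 3 pools for 24 members, against 6.87% of all genes. With a single null pool, it cannot be told from these arrays how far another null pool would lie from this one.

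The small and large subunits were then compared. The median log2 ratio was 0.53 ± 0.21 over the 21 small subunit genes and 0.38 ± 0.10 over the 36 large subunit genes (n = 3 pools). The difference of the medians was 0.26 in pool 1, 0.054 in pool 2 and 0.14 in pool 3, a mean of 0.15 ± 0.11. It was above 0 on all 6 arrays, between 0.036 and 0.30. Not above background were 3 small and 7 large subunit genes, and the offset holds such ratios near 0. Over the genes above background the difference was 0.0072 ± 0.073, with -0.066 in pool 3. With plain background subtraction it was 0.0053. The higher median of the small subunit was therefore not seen once dim probes were left aside. Called genes made up 42.9% of the small subunit and 38.9% of the large.

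**Figure D2:**
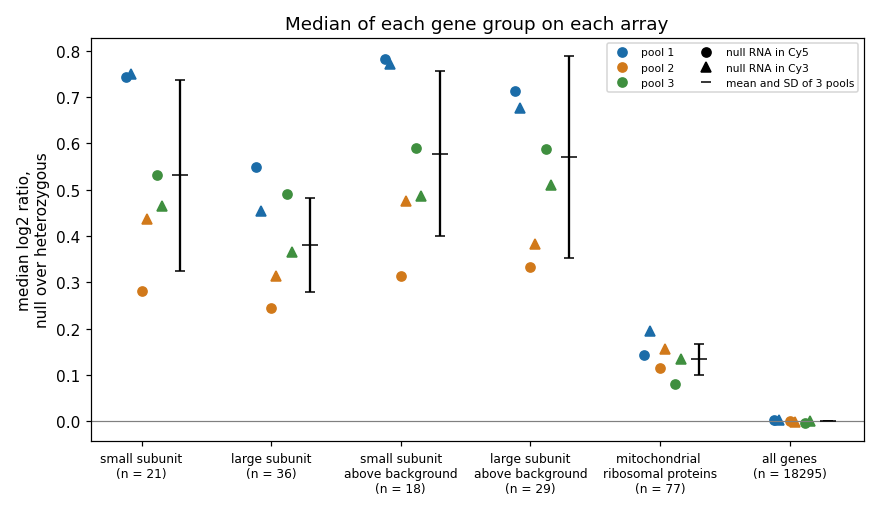
Median log2 ratio (null over heterozygous) of each gene group on each array, with colours for pools and shapes for dye orientation; the horizontal mark and bar are the mean and SD of the 3 pool medians. Every array lies above 0 for both subunits, and the difference between them (0.15) shrinks to 0.0072 over genes above background.

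Within the ribosome, ratios were spread over sites and not confined to one. Of 9 genes of the small subunit head, 8 were above background and 5 rose, with a median of 0.60 and a range from -0.02 to 1.08. The lowest value was that of Rps12, which was not above background. Over all genes 3.09% rose, and over all genes above background 4.6%. Of 5 genes of the platform, 4 were above background and 3 rose (median 0.58). Of 8 genes that line or surround the exit tunnel, 6 were above background and 3 rose (median 0.46). Of the 2 stalk genes 1 rose. Genes mutated in human Diamond-Blackfan anaemia, 11 in all with 9 above background, had 4 rises and a median of 0.50. In all these sets 0 genes fell. The sets overlap and were drawn up with the results known.

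Brightness went with the ratio among the members. In classes of mean log2 intensity, the median ratio of members above background was 0.13 below an intensity of 7 (5 genes), 0.34 from 7 to 8 (10 genes) and 0.78 at 12 or more (8 genes). Spearman's rho between ratio and intensity was 0.58 over the 47 members above background, which share arrays and the null pool. Other genes had a median of -0.12 among the 70 genes at 12 or more. Loess centres the ratios at each intensity within an array, with the members included. The medians of members and of other genes in a class are therefore not independent, and no trend of the other genes is read from them. The share of other genes that rose was 2.04% below 7, between 8.09% and 13.3% in the 5 classes from 7 to 12, and 2.86% at 12 or more. In those 5 classes the members that rose were 4 of 10, 1 of 7, 5 of 6, 3 of 4 and 5 of 7, from dim to bright. The part of the offset in the rise of the members' ratios with brightness was not tested.

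**Figure D3:**
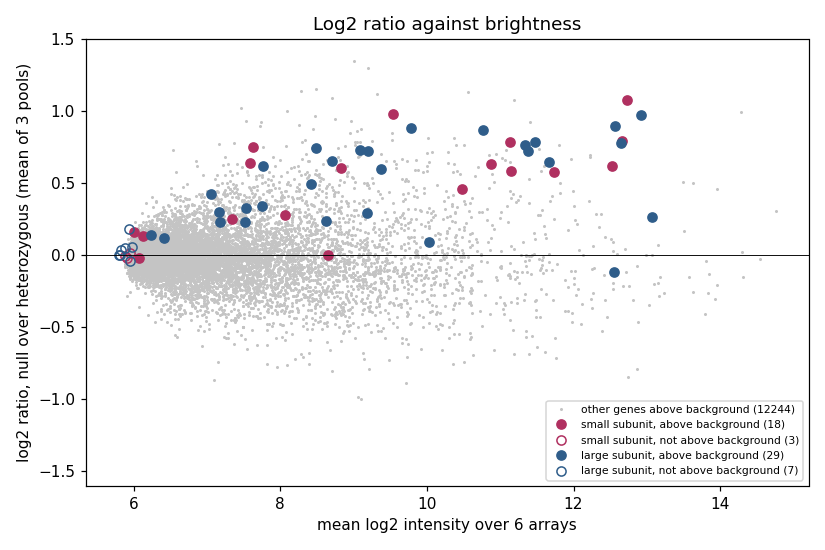
Log2 ratio (null over heterozygous, mean of 3 pools) against mean log2 intensity over 6 arrays, for ribosomal protein genes (coloured, open where not above background) and for the other 12244 genes above background (grey). Members at an intensity of 12 or more have a median ratio of 0.78, other genes there -0.12, and members not above background lie between -0.04 and 0.18.

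Ribosomal protein genes are also short, and short genes read higher across these arrays. Spearman's rho between log2 ratio and genomic span was -0.25 over 12217 other genes above background, a description of genes that are not independent. The median span of the members was 3269 bases, against 19484 over all genes. In each class of span that held members, their median was higher than that of the other genes. Between 2000 and 4000 bases the 22 members had a median of 0.62 and 11 rose, while the 765 other genes had a median of 0.02 and 9.54% rose. Between 4000 and 8000 bases the 16 members had a median of 0.54 and the 1401 other genes 0.02. With the trend on span removed, 22 members rose and the mean of the pool medians was 0.39. Genomic span is not transcript length, and the part of message length or RNA integrity in the ratios was not tested.

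**Figure D4:**
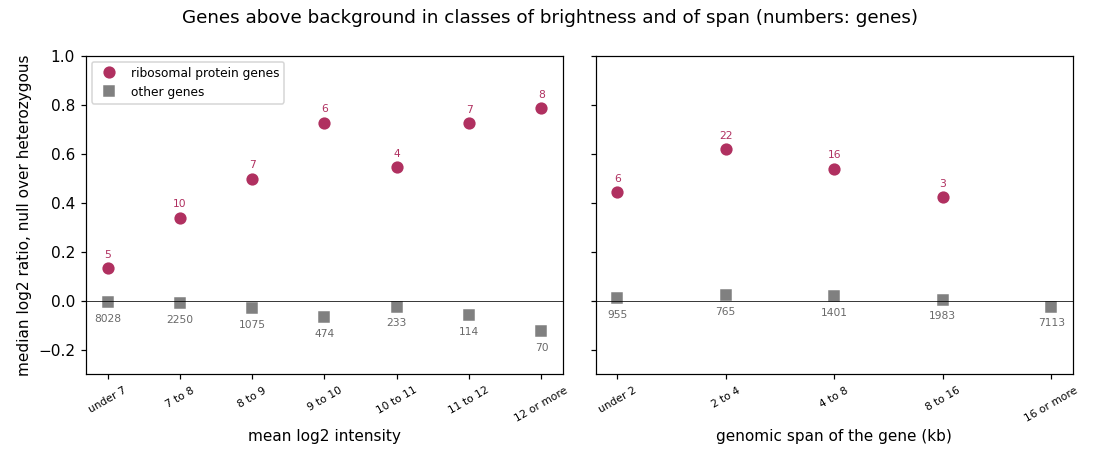
Median log2 ratio (null over heterozygous) of genes above background in classes of mean log2 intensity (left) and of genomic span (right), for ribosomal protein genes and for all other genes, with the number of genes beside each point. Other genes lie between -0.12 and 0.02 in every class, and members between 0.13 and 0.78.

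Each gene value so far was that of its brightest probe. In the fit over all 41174 probes, 27 of the 100 member probes rose and 0 fell, against 1.67% of all probes that rose. These 27 probes belonged to 22 genes, all among the 23 called by gene. Several probes were present for 29 members, up to 4 per gene, which gave 43 further probes. Of these, 24 in 17 genes were above background, 18 of the 24 read above 0 and 6 rose. Their median ratio was 0.16, against 0.60 for the brightest probes of the same genes, and 21 of the 24 read lower than the brightest. The further probes are dimmer by the way the brightest was chosen, and the offset shrinks the ratios of dim probes toward 0. The part of this in the gap was not tested.

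Agreement between probes depended on the gene. The 3 probes of Rps21 read 0.79, 0.59 and 0.59, and those of Rpl36 and Rpl36a agreed at 0.62 and 0.65 and at 0.79 and 0.80. Rps20 had a second probe at 0.98 ± 0.28 (adjusted p = 0.0438 over all probes) and another at -0.10 ± 0.20 (adjusted p = 0.691), both above background. Probes above background had opposite signs in 6 genes: Rpl11, Rpl22, Rpl35a, Rplp0, Rps20 and Rps25. In Rpl22 the brightest probe read 0.42 and the other -0.20 ± 0.070 (adjusted p = 0.0773). A further probe of Rplp2 read 0.02 ± 0.013, beside 0.97 for the brightest. The sites of the probes in the messages are not known here. Ribosomal protein genes have many near-identical processed copies, with 310 named pseudogenes in the reference table, so a probe may also read such a copy.

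**Figure D5:**
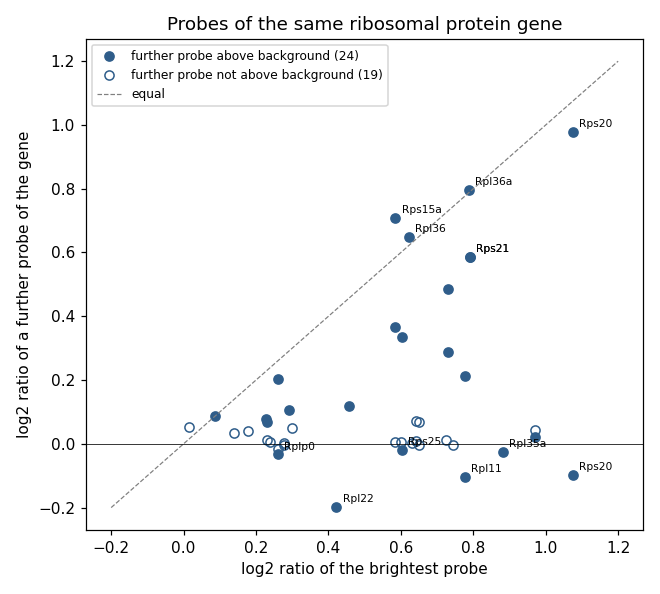
Log2 ratio of each further probe of a ribosomal protein gene against that of the brightest probe of the same gene, filled where the further probe was above background (24) and open where it was not (19). Named are further probes below 0 or above 0.55, and 21 of the 24 filled points lie below the line of equal values.

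Translation factors, assembly genes and regulators had medians near 0. Of 50 initiation, elongation and related factors, 2 rose and 1 fell (over all genes, 3.09% rose and 1.87% fell), with a mean of the pool medians of 0.029 ± 0.023. The initiation factor subunit Eif3h rose by 0.63 ± 0.026 (adjusted p = 0.0260), and Eif2b2, part of the exchange factor for initiation factor 2, by 0.35 ± 0.10 (adjusted p = 0.0452). Eif5 fell by 0.29 ± 0.071 (adjusted p = 0.0403). Of 55 genes of ribosome assembly, 1 rose and 1 fell, namely Nop10 at 0.43 ± 0.11 and Utp18 at -0.51 ± 0.10, and the list read -0.0024 ± 0.018. Among 28 regulators, including mTOR pathway genes, Myc and promoter-binding factors, 0 rose and 0 fell, at -0.02 ± 0.040.

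Mitochondrial ribosomal proteins, which are encoded in the nucleus and serve the separate ribosome of the organelle, lay between. Of 77 genes, 15 rose and 0 fell (19.5%, against 3.09% of all genes), with 0.13 ± 0.033 over the list. Those past the threshold with the largest ratios in size were Mrpl23, Mrpl13 and Mrpl20, at 0.59 ± 0.067, 0.58 ± 0.060 and 0.56 ± 0.19. The cytosolic members exceeded the mitochondrial ones in median in every pool, by 0.51 against 0.17 in pool 1, 0.29 against 0.11 in pool 2 and 0.43 against 0.12 in pool 3. The median log2 intensity was 6.87 over the mitochondrial list and 8.62 over the cytosolic members, and the offset holds the ratios of dim probes near 0. No test was made of the difference between the lists, and the part of brightness in it was not tested.

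Markers of the sorted neurons and of other cells were read beside these ratios. Over all genes, 3.09% rose and 1.87% fell, and the counts below are to be read beside these shares. Of 12 dopaminergic genes 1 fell and 0 rose: Slc6a3, the dopamine transporter, was at -0.42 ± 0.018 (adjusted p = 0.0260) and below 0 on all 6 arrays, between -0.47 and -0.38. Its probe cleared the background limit in the heterozygous RNA on 6 arrays but in the null RNA on 2. The dopaminergic sums ran from 1168 to 1912 in the null and from 1239 to 1965 in the heterozygous RNA. Of 10 cell cycle genes 3 rose (Cks2 at 0.75, Cdc20 at 0.32 and Birc5 at 0.22) and 0 fell, while Mki67 read 0.05 and Top2a and Cdk1 were not above background. The summed intensity of the list ran from 1356 to 1970 in the null RNA and from 1118 to 1658 in the heterozygous RNA over the arrays. Of 7 radial glia genes 0 passed, but 6 had a mean above 0 (47.8% of all genes) and 3 were above 0 on all 6 arrays (10.9% of all genes). These were Hes5 at 0.40 ± 0.20 (adjusted p = 0.0903), Fabp7 at 0.38 ± 0.21 (adjusted p = 0.113) and Sox2 at 0.11 ± 0.057 (adjusted p = 0.162). Vim, Nes and Hes1 read 0.14, 0.03 and 0.02, with Hes1 not above background. Slc1a3 went the other way, at -0.23 ± 0.33 (adjusted p = 0.478). The summed intensities of the list ran from 4317 to 6323 in the null and from 3590 to 6128 in the heterozygous RNA. Of 7 pan-neuronal genes Elavl3 fell, at -0.50, with sums from 2176 to 3001 in the null and from 2367 to 3500 in the heterozygous RNA. Among 5 erythroid genes 1 rose, the embryonic globin Hbb-y at 0.37. The sums of the erythroid list ran from 567 to 808 in the null and from 503 to 751 in the heterozygous RNA. Endothelial, microglial, mesenchymal and oligodendrocyte lineage markers (5, 5, 6 and 4 genes) had 0 calls. The part of these cells in the ribosomal protein ratios was not tested.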

How the data were processed

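The 6 arrays measured expression in sorted neurons of 3 heterozygous pools against 1 null pool. Per the file headers, the deposited scanner tables hold the intensity of every spot and its local background for the 2 channels, without normalization. The authors also deposited normalized intensity values and a series table of log2 values, which equalled the log2 of normalized Cy5 over Cy3 signal at each spot (100% within 0.001), with array medians from -0.0006 to 0.0023 and no turning of swapped arrays. Scanner, software and normalization method are not given in the sources used here. Channel 1 tracked the deposited Cy5 signal on every array.

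Here, normexp background correction (offset 50) and loess within each array, with control spots at weight 0, came first. Ratios were turned to null over heterozygous, and the 2 arrays of a pool averaged. The 18295 genes, each by its brightest probe, were tested against 0 with limma 3.58.1 in R 4.3.3 (Benjamini-Hochberg, threshold 0.05). Platform symbols were updated through RefSeq GRCm38.p6 (3726 probes). This test leaves out the spread of null pools, and nothing in the labels says that embryos were not shared between pools. The number of arrays limits the precision. The fit was tested on simulated data.

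Named members were, in each subunit, the 6 highest and 3 lowest genes above background, together with stalk genes, Rpsa, Rps6, paralogues with their parents, and genes whose probes disagreed in sign. Other called members are listed by value. Members, lists and tests were chosen with earlier results of these data known. Background, normalization, probe rule, dye, variance model and left-out pools were varied.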

Additional observations from a re-analysis of the deposited data

Results flagged for a closer look

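For 29 measures (named members above background, the member and subunit medians, and the subunit difference), the gap between an extreme array and its neighbour was set against the range of the 6 arrays. In 3 of them it passed Dixon's 95% limit, where chance would give about 5%, and the arrays are dye-swapped pairs, not 6 independent samples. Rplp2 had its extreme in pool 2 (null in Cy5), at 1.58 with the other arrays between 0.66 and 0.96. For Rpl3 that array gave -0.13, and the others 0.21 to 0.35. For Rps28, whose signals were close to background, the extreme was -0.19 in pool 3 (null in Cy5), and the others lay between -0.03 and 0.06.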

How the results depend on the processing

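The test rests on 3 heterozygous pools and 1 null pool, and most adjusted p-values lay close to 0.05. No paired analysis was possible because the heterozygous pools share 1 null pool and the samples form 1 group. The main counts were 908 called genes, 23 called ribosomal protein genes and 27 called member probes. All 3 counts were 0 with median centring, with plain background subtraction and with an unmoderated one-sample test, where 39, 41 and 29 members were still higher at an unadjusted p under 0.05 (2604, 3305 and 2573 genes in all). The cause was not tested. Leaving out 1 pool, so that 2 remain, gave 0 to 0, with 39 to 40 members at an unadjusted p under 0.05. With 6 arrays in 1 model, a dye term and pool as a random block, which uses more residual degrees of freedom, they were 2221, 36 and 47. In the remaining settings 22 to 33 member genes were called, 0 of them lower, including the span trend, a setting chosen after the data were seen.

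The member median of 0.41 was 0.58 with dim probes left out, 0.59 with plain subtraction and 0.23 with the mean over probes, which brings dim further probes in, and 0.36 to 0.47 when leaving out each pool. The difference of small and large subunit medians, 0.15, was 0.0072 with dim probes left out and 0.0053 with plain subtraction, and 0.095 to 0.20 when leaving out each pool. Of the 12 called named genes, 0 changed direction in 180 comparisons, 74 lost their call and 106 kept it. Uncalled genes near 0 changed sign in some settings. Rpl13a read 0.035 with median centring, 1.06 on the arrays with null RNA in Cy5 (adjusted p = 0.0432) and -0.26 to 0.15 when leaving out each pool. Rpl10 read -0.010 with the span trend removed, -0.0019 on the Cy5-null arrays and -0.0030 to 0.0096 when leaving out each pool. Rps28 read 0.035 with the null RNA in Cy3 and -0.046 to 0.025 when leaving out each pool. Rps4l read -0.0053 with the span trend removed, -0.0057 on the Cy5-null arrays and -0.021 to 0.038 when leaving out each pool. The median of all genes, 0.00074, was -0.00038 with dim probes left out and -0.00037 with the null RNA in Cy5.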
